A study of Homo sapiens with 9 samples.

Results

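RAG1, RAG2, DNTT, IGLL1, VPREB1 and VPREB3, the genes of the V(D)J recombinase, its nucleotide-adding enzyme and the surrogate light chain, were followed through the growth of a human lymphoma line in mouse bone marrow. These 6 genes, of 58243 counted, were chosen by function, and the set was taken up because RAG1 and IGLL1 stood higher at day 19 than in culture and lower again at day 40. The values of RAG1 and IGLL1 are therefore given as a description, and no p-value is given for them. All 6 genes passed the filter on low counts that left 15163 genes for testing.

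The cells were DOHH2, a line established from human transformed follicular lymphoma. RNA-seq was made from cultured DOHH2 cells on day 0, the day of grafting, and from DOHH2 cells that had grown in RAGγc mice and were taken out of the femurs at day 19 or day 40, with 3 libraries in each group. RAGγc mice are immunodeficient hosts. Femur cells were released with enzymes, depleted of mouse Cd45- and Ter119-positive cells with beads and sorted as human CD20-positive cells, whereas the labels describe no such handling for cultured cells, so that growth in the femur and this handling cannot be told apart. The labels give neither the age or sex of the mice nor which animal or culture stands behind a library, and all libraries come from 1 cell line. The p-values then rest on how far these samples vary, and that variation may be technical. From the dates in the titles, libraries fall into 3 sampling periods of 1 library per group; within them, day 19 came 18 or 19 days later than culture, but day 40 came 11, 26 and 39 days later, so that only day 40 replicate 3 fits a graft on the date of its culture library.

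V(D)J recombination assembles the antigen receptor genes of developing lymphocytes. RAG1 and RAG2 form the recombinase that cuts at recombination signals, terminal deoxynucleotidyl transferase (TdT, from DNTT) adds nucleotides at the heavy-chain joints, and the end-joining machinery closes the breaks. Before a light chain exists, the immunoglobulin mu heavy chain pairs with the surrogate light chain, made of the IGLL1 (lambda 5) and VPREB1 proteins, in the pre-B-cell receptor. Mature and germinal-centre B cells normally carry little RAG, TdT or surrogate light chain message, while VPREB3 stays on into later stages.

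Sequences upstream of RAG2, DNTT and IGLL1 are shown because their messages were highest at day 19 and far lower in culture, and that of VPREB1 because its protein is the partner of IGLL1. They are taken from the 250 bases before each RefSeq start on GRCh38.p14, and bases inside the gene's own GENCODE transcripts were left off. RAG2 lies on the minus strand and the stretch shown is chr11:36598280-36598486, DNTT is on the plus strand with chr10:96304184-96304395, IGLL1 is on the minus strand with chr22:23580309-23580540, and VPREB1 is on the plus strand with chr22:22244536-22244674. Each is written 5′ to 3′ on the gene's strand, and capitals mark matches to CANNTG, the E-box bound by E proteins such as the product of TCF3.
RAG2: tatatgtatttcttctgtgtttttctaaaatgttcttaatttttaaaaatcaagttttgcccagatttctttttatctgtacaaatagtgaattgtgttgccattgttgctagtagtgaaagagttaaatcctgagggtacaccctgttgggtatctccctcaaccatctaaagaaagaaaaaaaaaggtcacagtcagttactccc
DNTT: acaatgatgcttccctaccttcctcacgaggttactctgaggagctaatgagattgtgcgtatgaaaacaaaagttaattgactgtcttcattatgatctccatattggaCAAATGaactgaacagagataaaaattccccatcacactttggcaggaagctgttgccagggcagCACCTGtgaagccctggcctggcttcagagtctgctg
IGLL1: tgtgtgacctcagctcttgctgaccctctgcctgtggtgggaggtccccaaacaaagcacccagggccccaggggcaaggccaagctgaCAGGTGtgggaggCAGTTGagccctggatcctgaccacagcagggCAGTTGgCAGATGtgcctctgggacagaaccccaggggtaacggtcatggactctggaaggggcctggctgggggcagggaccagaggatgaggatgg
VPREB1: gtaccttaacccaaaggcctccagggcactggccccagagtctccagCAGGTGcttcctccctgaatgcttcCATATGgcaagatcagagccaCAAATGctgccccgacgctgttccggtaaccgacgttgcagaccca
The RAG1 window is not shown because 170 of its 250 bases lie in an exon of TRAF6, the neighbour transcribed the other way. GENCODE also lists RAG1 starts at 36510709, 36515464 and 36568025 on chromosome 11, and counts per gene cannot tell which of them was used.

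IGLL1 held 5 E-box matches in its 250 bases, 1 of them in the stretch left off, against 2 in DNTT, 1 in RAG1, 1 in RAG2, 3 in VPREB1 and 3 in VPREB3. The single RAG2 match also lies in the stretch left off, so the RAG2 line has no capitals. Of 35116 RefSeq windows of the same length, 61.8% held at least 1 match to CANNTG and 0.888% held 5 or more, with a median of 1. CAGGTG, an E-box form included in CANNTG, was found once each in DNTT, IGLL1, VPREB1 and VPREB3 and in neither RAG window, against 17.5% of all windows. Both strands were searched. None of the 6 windows held the forkhead motif GTAAACA (2.98% of all windows), the palindromic EBF1 motif (1.06%) or TATAAA (10.7%). VPREB3 alone among the 6 held TGGGAA, the Ikaros core (20.8%), and the octamer core ATTTGCA (3.67%). GC content ran from 34.0% in the RAG2 window and 46.4% in that of DNTT to 63.6% in IGLL1 and 70.0% in RAG1, against a median of 58.0%. A match describes letters, not a bound site.

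RAG1 (ENSG00000166349, chr11:36510709-36593156 on hg38, plus strand), the catalytic subunit of the recombinase, was close to silent in culture. Its level in the 3 culture libraries was 0.509, 0.500 and 0.271 counts-per-million units (CPM). In the day 19 femur libraries it was 11.3, 16.9 and 17.1 CPM, and in those of day 40 it was 3.58, 3.22 and 2.54 CPM. The 3 groups did not overlap, and each day 40 library lay between every culture and every day 19 library. Of all 15163 tested genes, 876 (5.78%) showed this order of libraries without overlap. From 30 counts in all culture libraries and 1027 at day 19, the ratio of the group levels was 36.0, with a 95% counting interval of 25.1 to 53.6. Day 40 stood at 7.47 times culture (5.10 to 11.3) and 0.208 of day 19 (0.180 to 0.238). Such intervals cover counting error only. In bulk RNA, a smaller share of cells with a transcript and less transcript per cell cannot be told apart, here and for every gene below.

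RAG2 (ENSG00000175097, chr11:36575574-36598279, minus strand), the cofactor that binds RAG1 and reads a methylated histone mark, followed the same order at lower levels. Culture libraries held 0.0424, 0 and 0.0387 CPM, only 2 counts in all. Day 19 libraries held 1.80, 3.35 and 2.07 CPM, and day 40 libraries 0.796, 0.670 and 0.901 CPM. Replicate 2 was the highest of day 19 and the lowest of day 40, and the groups did not overlap. The ratio of day 19 to culture was 85.1, with a counting interval of 23.2 to 709 that reflects the 2 culture counts, and edgeR's quasi-likelihood test gave an adjusted p of 1.48e-06. RAG2 passed the filter on low counts through the femur libraries alone. Its p-values against culture thus describe a gene kept by the groups where it is high. Day 40 was 27.9 times culture (7.41 to 235, adjusted p = 9.09e-05). RAG2 fell from day 19 to day 40 by 1.61 on the log2 scale (SE 0.31, adjusted p = 0.0108), to 0.328 of its level. That call rested on single libraries: the adjusted p was 0.0694 without day 19 replicate 2, 0.0521 without day 40 replicate 2 and 0.376 with day 40 replicate 3 as the only day 40 library.

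Some RAG1 and RAG2 counts are uncertain, because the genes face each other and their last exons overlap. RAG1 shares 588 of its 7815 exon bases with RAG2 on the opposite strand. RAG2 shares 909 of its 3502 exon bases (26.0%) with RAG1 and C11orf74, also on the opposite strand, and the strand setting of the counting is not given in the sources used here. Per kilobase of exon, RAG1 exceeded RAG2 by 2.81, 2.27 and 3.71 times in the day 19 libraries and by 2.02, 2.15 and 1.26 times in the day 40 libraries. These ratios were lower at day 40 without overlap, but the lowest of day 19 (2.27) lay close to the highest of day 40 (2.15). The day 40 ratios rest on 22, 20 and 22 RAG2 counts, and the difference was not tested.

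DNTT (ENSG00000107447, chr10:96304396-96338564, plus strand), the gene of TdT, was read once in the 3 culture libraries together. Its levels were 0, 0 and 0.0387 CPM in culture, 1.58, 1.81 and 1.60 CPM at day 19, and 0.434, 0.335 and 0.573 CPM at day 40. The day 19 libraries were tight, with a mean of 1.67 ± 0.128 CPM (SD, n = 3), and stood above all day 40 libraries. Day 19 was 119 times culture by level, with a counting interval of 20.9 to 4732, and the adjusted p was 1.89e-06. DNTT passed the filter on low counts only with its day 19 libraries (36, 39 and 38 counts). Of the day 40 libraries, replicate 2 (10 counts) fell short at its depth. The p-values of DNTT thus describe a gene kept by the group where it is high. Day 40 was 31.4 times culture (5.28 to 1273, adjusted p = 0.000248). From day 19 to day 40 DNTT fell by 1.90 on the log2 scale (SE 0.32, adjusted p = 0.00489), to 0.264 of its level (0.176 to 0.388), and the adjusted p was 0.313 with day 40 replicate 3 as the only day 40 library. DNTT shares no exon base with another gene.

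**Figure D1:**
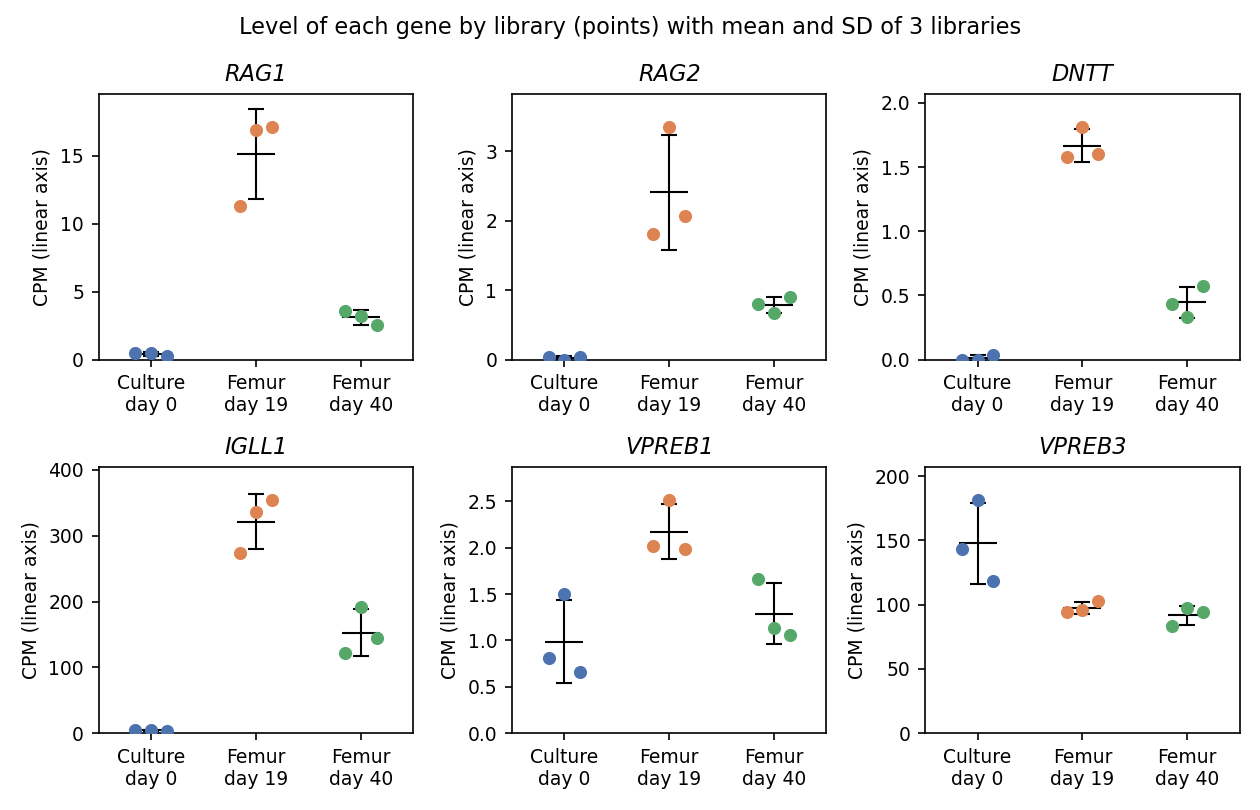
Level of each of the 6 genes in every library, in CPM on a linear axis from 0, with culture day 0, femur day 19 and femur day 40 side by side; points are libraries, and the bars show the mean and SD of 3 libraries. RAG1, RAG2, DNTT and IGLL1 show the order culture, day 40, day 19 with no overlap, as do 5.78% of all tested genes. The set was taken up for this order in RAG1 and IGLL1. VPREB1 differs less, and VPREB3 is highest in culture.

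IGLL1 (ENSG00000128322, chr22:23573125-23580308, minus strand), lambda 5 of the surrogate light chain, reached the highest level per kilobase of the 5 members that were higher at day 19 than in culture. Culture libraries held 4.11, 4.87 and 3.56 CPM. Day 19 libraries held 274, 336 and 354 CPM, and day 40 libraries 122, 192 and 144 CPM. The groups did not overlap, and the day 19 level was 77.6 times that of culture (69.1 to 87.3). At day 40 it remained 37.2 times culture (33.1 to 41.8), which is 0.479 of the day 19 level (0.469 to 0.490). Per kilobase of exon, IGLL1 ranked 7066 of 15121 tested genes with a length in culture, 73 at day 19 and 153 at day 40.

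IGLL1 resembles immunoglobulin lambda constant genes and pseudogenes, so reads of these could have been shared. Of 947 windows of 50 bases in its transcripts, 78 (8.24%) also occur in transcripts of other genes. IGLL3P and AL022324.4 share 60 windows each, IGLC1 and IGLL5 share 18 each, and GUSBP11 and AP000346.2 share 17 each. These relatives carried few counts where they were counted, and AL022324.4 was not analysed here. IGLL5 had 0, 1 and 0 counts in all culture, day 19 and day 40 libraries, IGLL3P had 0, 6 and 3, IGLC1 had none and GUSBP11 had 12, 41 and 28. Of the lambda constant genes, IGLC7 and IGLC3 passed the filter. IGLC7 rose from 0.115 ± 0.0583 to 1.31 ± 0.349 CPM at day 19 (SD, n = 3 each; adjusted p = 0.000227). IGLC7 passed the filter through the femur libraries alone, so this p-value describes a gene kept by the groups where it is high. IGLC3 was at 687 CPM in culture, 809 at day 19 and 767 at day 40 and did not pass the test at day 19 (adjusted p = 0.137) or at day 40 (0.323).

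VPREB1 (ENSG00000169575, chr22:22244675-22245515, plus strand), the other chain of the surrogate, differed far less than IGLL1. Culture libraries held 0.806, 1.50 and 0.658 CPM, day 19 libraries 2.02, 2.51 and 1.99 CPM, and day 40 libraries 1.67, 1.14 and 1.06 CPM. All day 19 libraries lay above the others, while culture replicate 2 lay within the range of day 40. VPREB1 rose at day 19 by 1.15 on the log2 scale (SE 0.32, adjusted p = 0.00894), 2.24 times culture. It passed the test neither between day 40 and culture (log2 difference 0.40, SE 0.32, adjusted p = 0.333) nor between day 40 and day 19 (-0.75, SE 0.30, adjusted p = 0.226).

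The messages of the 2 surrogate light chain genes differed in level. Per kilobase of exon, IGLL1 exceeded VPREB1 by 4.26, 2.71 and 4.52 times in culture, by 113, 112 and 149 times at day 19, and by 61.1, 141 and 113 times at day 40. Every femur library lay far above every culture library in this ratio, and the 2 femur days overlapped. The heavy chain with which the surrogate pairs was nearly without counts: IGHM had 0, 1 and 3 counts in all libraries of culture, day 19 and day 40. IGHG1, named after its values were seen, had 8166, 13191 and 13609.

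VPREB3 (ENSG00000128218, chr22:23752743-23754468, minus strand), a relative of VPREB1 that binds newly made heavy chains in the endoplasmic reticulum, went the other way. Culture libraries held 143, 181 and 119 CPM, day 19 libraries 94.0, 95.7 and 103 CPM, and day 40 libraries 83.1, 97.6 and 93.9 CPM. Every femur library lay below every culture library, and the 2 femur days overlapped. VPREB3 fell by 0.60 at day 19 (SE 0.12, adjusted p = 0.00145) and by 0.69 at day 40 (SE 0.12, adjusted p = 0.000733), on the log2 scale. Between day 40 and day 19 the log2 difference was -0.09 (SE 0.12, adjusted p = 0.801). Per kilobase, VPREB3 was 51.7, 55.2 and 49.4 times IGLL1 in the culture libraries, 0.508, 0.422 and 0.431 times at day 19, and 1.01, 0.753 and 0.968 times at day 40.

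Of the 4 members whose values did not choose the set, RAG2, DNTT and VPREB1 were called higher and VPREB3 lower at day 19 against culture, where 26.3% of the 15163 tested genes were called higher and 26.5% lower. At day 40 against culture RAG2 and DNTT were called higher and VPREB3 lower, beside 23.3% and 23.3% of all genes. From day 19 to day 40, edgeR called RAG2 and DNTT lower, beside 1.45% of all genes, and 0 of the 4 higher, beside 3.23%; 0 were higher also at an unadjusted p under 0.05, by DESeq2 and by limma voom. Counted by libraries, the day 19 libraries lay wholly above culture for 3 of the 4 (30.6% of all genes) and wholly below for 1 (31%). Those of day 40 lay above culture for 2 (27.4%) and below for 1 (27.4%), and below those of day 19 for 3 (12.6%) and above for 0 (14%). RAG2 and DNTT showed the full order culture, day 40, day 19 without overlap, beside 5.78% of all genes. Both were called higher at day 19 and then lower at day 40, beside 1.27% of all genes. The comparisons share libraries and are not independent of one another. RAG2 and DNTT passed the filter on low counts through femur libraries, where they are high, so their calls against culture are no independent support. The same holds for the fall of DNTT from day 19.

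**Figure D2:**
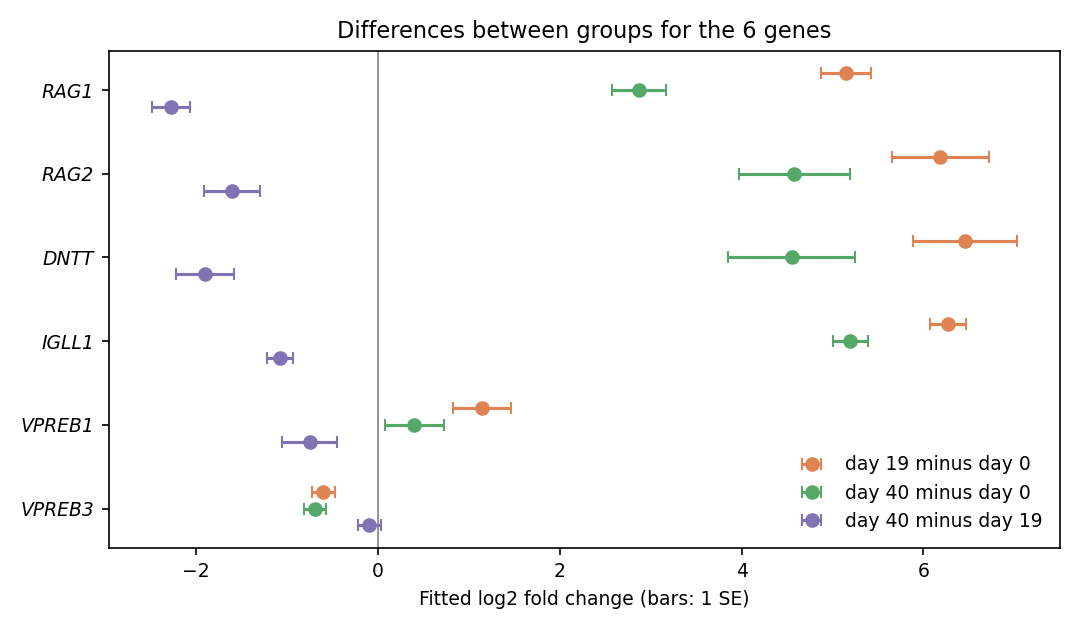
Fitted log2 fold changes of the 6 genes for day 19 against culture, day 40 against culture and day 40 against day 19; points are estimates and bars 1 standard error from 3 libraries per group. The first 4 genes lie between 5.15 and 6.45 at day 19 and between -1.07 and -2.28 for day 40 against day 19, while VPREB3 lies below 0 throughout; for RAG2 and DNTT the size against culture depends on 2 and 1 culture counts.

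The step between day 19 and day 40 differed in size among the genes and among sampling periods. Day 19 exceeded day 40 within the 3 periods by 3.15, 5.27 and 6.76 times for RAG1 and by 2.26, 5.00 and 2.30 times for RAG2. For DNTT the ratios were 3.64, 5.42 and 2.80, and for IGLL1 2.25, 1.75 and 2.46. VPREB1 gave 1.21, 2.21 and 1.87. Day 19 was higher in 3 of 3 periods for each of the 5 genes. Any matching of libraries would give this, because all their day 19 libraries lay above all their day 40 libraries. For RAG1 and IGLL1 the fall also chose the set. On the log2 scale the drop was 65.1% of the preceding difference from culture for VPREB1, whose drop did not pass the test, 44.2% for RAG1, 29.4% for DNTT, 26.0% for RAG2 and 17.1% for IGLL1. The shares of DNTT and RAG2 depend on the prior count, since culture held 1 and 2 counts, and the differences between the shares were not tested. Per kilobase, IGLL1 stood at 172 to 210 times RAG1 in the day 19 libraries and at 294 to 517 times in those of day 40, with no overlap.

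The genes most like RAG1 over the 9 libraries, by the root mean square difference of centred log2 CPM among 13188 genes, were RAG2 (0.50) at rank 1, the placental alkaline phosphatase gene ALPP (0.52), DNTT (0.54), the adaptor gene DOK7 (0.54) and TCL6 (0.54). IGLL1 ranked 150, VPREB1 833 and VPREB3 11386. ALPP had no count in culture, which allows up to 3 counts per library, and averaged 1.38 CPM at day 19 and 0.489 CPM at day 40. TCL6, a non-coding gene of the TCL1 locus, averaged 0.700, 15.9 and 6.81 CPM in the 3 groups in order of day. The genes most like IGLL1 were APOL3 (0.32), the non-coding AC093110.1 (0.33), the beta-spectrin gene SPTBN1 (0.33), NRXN2 (0.34) and PDGFRB (0.41). SPTBN1 was at 16.3 CPM in culture, 760.3 at day 19 and 465 at day 40. RAG2 ranked 78, RAG1 84 and DNTT 121 in likeness to IGLL1.

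The nearest tested genes on each side of the members gave much smaller differences in most places. Nearest counts only genes that passed the filter, and some of them lie far off. RAG2 ends at 36598279 on chromosome 11, while API5 and TTC17 start at 43311963 and 43358932. COMMD9 ends at 36289449, before the RAG1 start at 36510709. These values therefore say little about the RAG locus itself. Around the RAG pair, the log2 difference between day 19 and culture was 0.41 for COMMD9 (SE 0.10, adjusted p = 0.006) and 0.27 for TRAF6 (SE 0.13, adjusted p = 0.0894, but 0.0446 without culture replicate 3). On the far side it was -0.03 for API5 (adjusted p = 0.725), with the sign turning to 0.06 when libraries were scaled to their totals, and 0.20 for TTC17 (adjusted p = 0.0348, and 0.0516 to 0.122 without culture replicate 1 or 3, any day 19 library or day 40 replicate 2). Beside DNTT, BLNK, an adaptor of the pre-B and B-cell receptor, rose by 0.36 (adjusted p = 0.000362) and TM9SF3 fell by 0.44 (adjusted p = 0.000152).

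On chromosome 22 more of the neighbours moved. BCR (chr22:23179704-23318037) rose by 0.88 on the log2 scale (adjusted p = 3.51e-06) and the pseudogene FBXW4P1 (chr22:23262767-23265005) by 1.17 (adjusted p = 0.00334). FBXW4P1 lies within BCR on the same strand, so the 2 may not be separate observations, which was not tested. The long noncoding RNA AP000345.2 (chr22:23580880-23583859, minus strand), which ends 572 bases upstream of the IGLL1 start, held 0, 0.182 and 0.116 CPM in culture, 2.20, 2.79 and 3.42 CPM at day 19 and 0.941, 0.837 and 1.27 CPM at day 40. Its groups stood in the same order as those of IGLL1 and did not overlap, as was so for 5.78% of all genes. AP000345.2 rose by 4.77 (SE 0.48, adjusted p = 5.88e-06) and then fell by 1.47 to day 40 (SE 0.33, adjusted p = 0.0244, and 0.0925 to 0.132 without day 19 replicate 2 or 3 or day 40 replicate 1 or 2). AP000346.2, which shares sequence with IGLL1, rose by 2.31 (adjusted p = 0.00088). AP000345.2 and AP000346.2 passed the filter on low counts through the femur libraries alone. Their p-values against culture thus describe genes kept by the groups where they are high. Beside VPREB1 the lambda variable segment IGLV6-57 fell by 2.02 (adjusted p = 4.58e-05) while AC245060.6 rose by 1.32 (adjusted p = 0.000163). Beside VPREB3, ZNF70 rose by 1.19 (adjusted p = 9.73e-06) and RGL4 by 2.07 (adjusted p = 3.55e-05), and CHCHD10 fell by 0.83 (adjusted p = 8.82e-06).

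**Figure D3:**
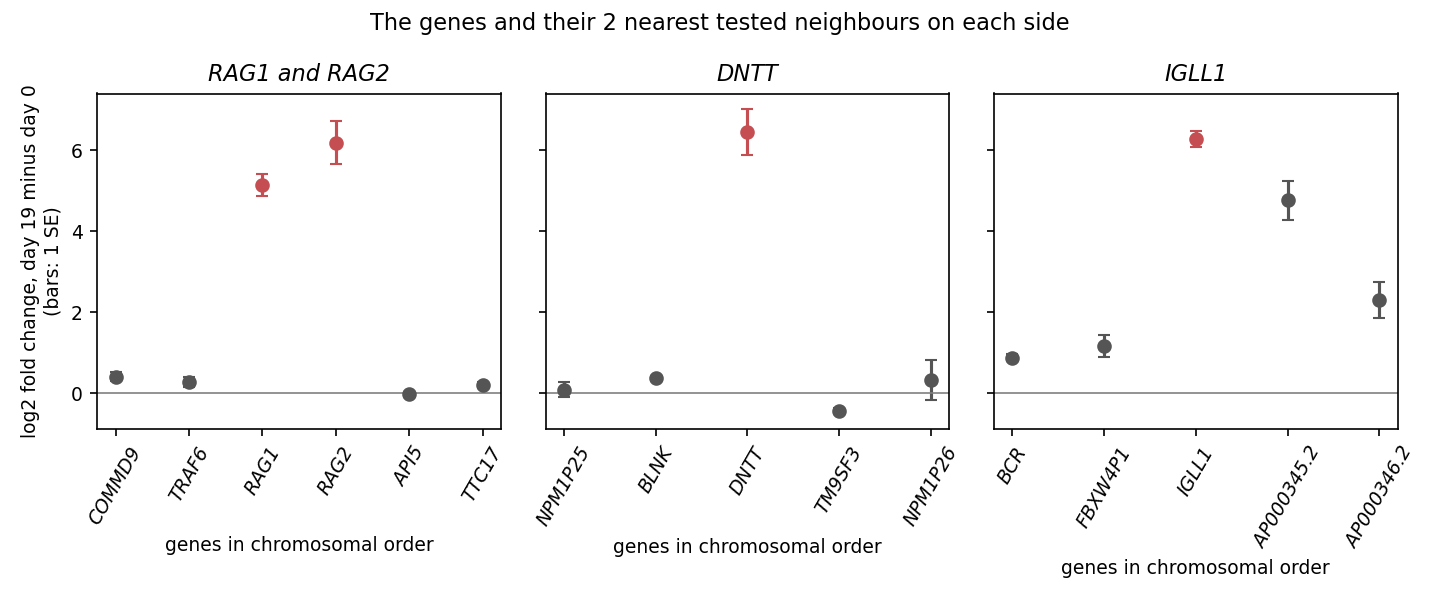
Log2 fold changes, day 19 against culture, of RAG1, RAG2, DNTT and IGLL1 (red) and of the 2 nearest tested genes on each side (grey), in order along the chromosome; bars are 1 standard error from 3 libraries per group. Among the neighbours that are not members, AP000345.2 beside IGLL1 has the largest value (4.77), and those around the RAG pair lie between -0.03 and 0.41.

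The end-joining genes that close RAG breaks showed no common direction. Of 19 genes tested, 5 rose, 5 fell and 9 were not called at day 19, shares close to the 26.3% higher and 26.5% lower among all genes, with a median log2 difference of 0.06 against 0.01 for all genes. DNA ligase IV (LIG4) rose from 22.7 ± 1.99 to 51.6 ± 3.76 CPM (SD, n = 3 each; log2 difference 1.19, adjusted p = 1.12e-06). POLM, a polymerase related to TdT, rose from 75.9 ± 5.34 to 158 ± 5.97 CPM (1.06, adjusted p = 4.6e-07). XRCC4, the partner of ligase IV, fell from 16.5 ± 2.92 to 8.77 ± 1.03 CPM (-0.91, adjusted p = 0.00023). Against culture, the Ku subunits XRCC5 and XRCC6 fell by 0.30 and 0.26 at day 19 and by 0.31 and 0.26 at day 40. The counts were 3 higher without day 19 replicate 1, and 3 lower without day 19 replicate 2 or when libraries were scaled to their totals. At day 40 against culture, 4 rose and 3 fell. Between day 40 and day 19 edgeR called none, with 1 higher and 3 lower at an unadjusted p under 0.05 and 1 lower under the block on sampling period.

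Transcription factors of early B cells split in both directions. Of 27 tested, 11 rose and 10 fell at day 19 (26.3% and 26.5% of all genes; median log2 difference 0.11), 10 rose and 7 fell at day 40 against culture (23.3% and 23.3%), and 4 rose and 6 fell from day 19 to day 40, where 3.23% and 1.45% of all genes did. EBF1, a factor that specifies the B lineage, was at 34.5, 37.1 and 34.8 CPM in culture, 79.7, 83.5 and 80.3 at day 19 and 48.2, 64.1 and 56.5 at day 40. Its groups did not overlap, in the order culture, day 40, day 19 that 5.78% of all genes showed. EBF1 rose by 1.20 (adjusted p = 5.98e-07) and then fell by 0.53 (adjusted p = 0.00528). TCF3, the E-protein gene, was at 964, 920 and 867 CPM in culture, 1488, 1572 and 1550 at day 19 and 1069, 1200 and 1228 at day 40. TCF3 rose by 0.75 (adjusted p = 7.17e-06) and then fell by 0.40 (adjusted p = 0.0108), a call lost without day 40 replicate 1, day 19 replicate 2 or day 19 replicate 3.

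FOXO1, a factor known to activate the RAG genes in B-cell precursors, went opposite to them. It was at 181, 156 and 177 CPM in culture, 94.9, 95.8 and 91.3 at day 19 and 139, 143 and 124 at day 40. The groups did not overlap: FOXO1 fell by 0.87 at day 19 (SE 0.07, adjusted p = 1.48e-06) and rose by 0.52 from day 19 to day 40 (SE 0.07, adjusted p = 0.0017). PAX5, the B-lineage commitment factor, rose by 0.71 (adjusted p = 8.69e-05) and differed by -0.19 between day 40 and day 19 (adjusted p = 0.371). IKZF1, the Ikaros gene, gave adjusted p of 0.0601 at day 19, 0.532 at day 40 against culture and 0.491 between the femur days; at day 19 it was called lower without culture replicate 3 (0.017) or day 19 replicate 1 (0.0475), without the filter on low counts (0.0181) and by DESeq2 (0.0488).

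Other factors of the list moved further. IRF4, named after its values were seen, rose from 0.0707 ± 0.122 to 5.88 ± 2.65 CPM at day 19 (SD, n = 3 each; adjusted p = 1.27e-05), with 5 counts in culture, and differed by -0.12 between day 40 and day 19 (adjusted p = 0.931). IRF4 passed the filter on low counts through the femur libraries alone. Its p-value against culture thus describes a gene kept by the groups where it is high. GFI1 rose by 2.87 at day 19 (adjusted p = 6.22e-08) and also differed by -0.12 between the femur days (adjusted p = 0.771). IKZF2 (Helios) rose from 17.3 ± 1.26 to 259 ± 24.96 CPM at day 19 (3.91, adjusted p = 4.64e-10) and fell by 0.77 from there to day 40 (adjusted p = 0.00142). MYB, needed for early lymphoid cells, rose by 1.62 (adjusted p = 1.31e-08) and fell by 0.60 (adjusted p = 0.000817). SOX4 rose by 1.51 (adjusted p = 3.57e-08). MEF2C fell by 1.85 (adjusted p = 3.49e-08) and rose by 0.63 (adjusted p = 0.00393). The numbers for day 40 against day 19 were 3 lower without day 19 replicate 2, and 0 higher and 1 lower with day 40 replicate 3 as the only day 40 library, which also left 4 lower against culture.

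**Figure D4:**
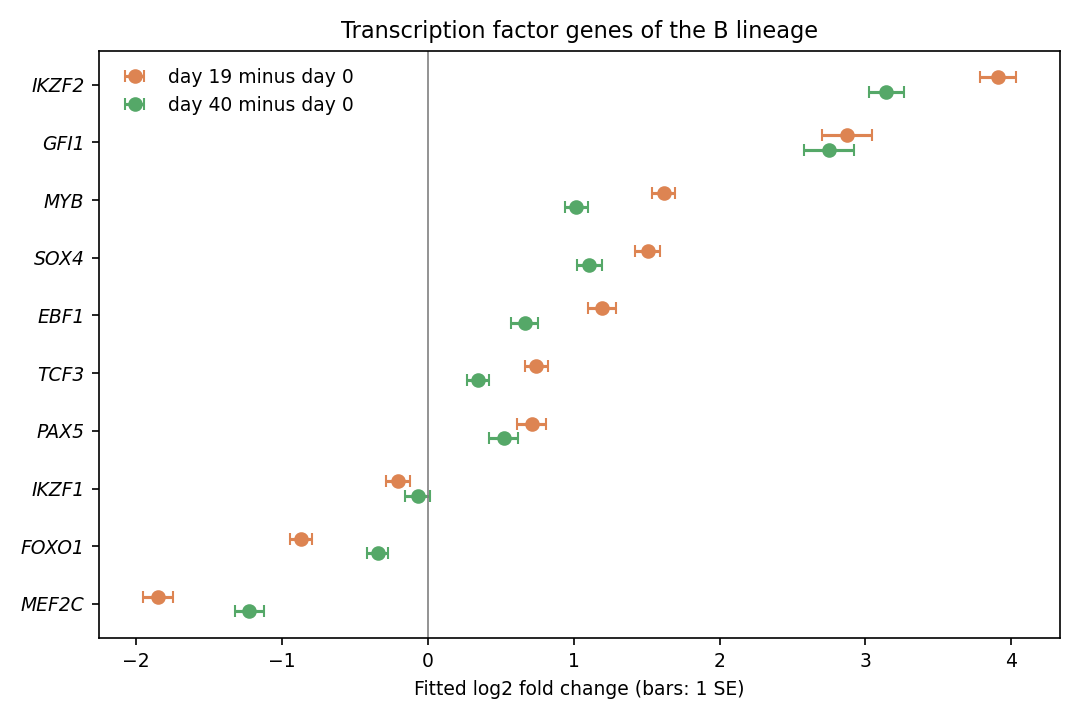
Fitted log2 fold changes of 10 transcription factor genes for day 19 (orange) and day 40 (green) against culture; bars are 1 standard error from 3 libraries per group. EBF1, TCF3, MYB and IKZF2 lie above culture with day 19 higher than day 40, and FOXO1 and MEF2C lie below culture with day 19 lower than day 40.

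Signalling genes of the pre-B-cell and interleukin-7 receptors were mixed as well. Of 19 tested, 5 rose and 8 fell at day 19 (26.3% and 26.5% of all genes), and 6 rose and 8 fell at day 40 against culture (23.3% and 23.3%). IL7R, the receptor chain for interleukin-7, rose from 55.5 ± 3.49 to 103 ± 7.16 CPM (0.89, adjusted p = 4.28e-06) and fell by 0.65 from day 19 to day 40 (adjusted p = 0.000965). CD79A, a signalling chain shared by pre-B and B-cell receptors, fell from 725 ± 66.4 to 372 ± 22.0 CPM (-0.96, adjusted p = 9.97e-07). PIK3CD rose by 1.01 (adjusted p = 4.42e-08). From day 19 to day 40, LYN rose and IL7R, PIK3CD and CCND3 fell. The number higher at day 40 against culture was 3 without culture replicate 1, culture replicate 3 or day 40 replicate 2. CCND3 was not called when any day 19 library or day 40 replicate 1 or 2 was left out (adjusted p 0.0646 to 0.168). LYN was not called without day 19 replicate 2 (adjusted p = 0.0538), and with day 40 replicate 3 as the only day 40 library none of the 4 was called, while 5 were lower than culture.

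Surface and other markers of B-cell precursors were tested for 9 of 15 genes. CD34, KIT, FLT3, ARPP21, AKAP12 and CD93 stayed below the filter and were nearly without counts in every group. Summed over the libraries of culture, day 19 and day 40, CD34 had 1, 0 and 0 counts. KIT had 1, 3 and 3, and FLT3 had 0, 0 and 2. ARPP21 had 1, 0 and 0, AKAP12 had 5, 3 and 3, and CD93 had 0, 2 and 0. Of the 9 tested, 5 rose and 3 fell at day 19 (26.3% and 26.5% of all genes), and 5 rose and 4 fell at day 40 against culture (23.3% and 23.3%). CD24 rose from 206 ± 35.7 to 699.5 ± 7.57 CPM at day 19 (1.76, adjusted p = 1.83e-07), and CXCR4 from 123 ± 7.15 to 571 ± 68.3 CPM (2.22, adjusted p = 1.03e-08). The 3 genes that fell at day 19, named after their values were seen, were CRLF2 (-2.70, adjusted p = 0.00193), CD99 (-1.19, adjusted p = 4.56e-05) and MME, the gene of CD10 (-0.35, adjusted p = 0.00375). These and CD38 (-0.34, adjusted p = 0.0139) were lower at day 40 against culture. CRLF2 passed the filter through the culture libraries alone, so its p-value describes a gene kept by the group where it is high. CD9, with 2 counts in culture and 1465 at day 19, gave a ratio of 769.8 (213 to 6363). From day 19 to day 40 CXCR4 alone was called lower (-0.38, adjusted p = 0.0496, a call lost in 7 of the 9 fits that left out 1 library) and none higher, with 5 lower and 1 higher at an unadjusted p under 0.05. The number lower ran from 0 to 4 when 1 library was left out (4 without culture replicate 2), and the block on sampling period gave 3 lower and 1 higher.

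Of 9 genes listed for hypermutation and class switching, 5 rose and 3 fell at day 19, beside 26.3% and 26.5% of all genes. UNG, which removes uracil from DNA, rose by 0.39 (adjusted p = 0.000125) and EXO1 by 0.43 (adjusted p = 0.00119). At day 40 against culture 4 rose and 3 fell, with 2 rising without culture replicate 3, day 40 replicate 2 or day 40 replicate 3, and 1 with day 40 replicate 3 as the only day 40 library. UNG was the gene called lower from day 19 to day 40 (-0.22, adjusted p = 0.0491), and the call was absent in 8 of the 9 fits that left out 1 library and under the block (0.0538).

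Total counts ran from 21071239 to 29456271 per library. Mitochondrial genes took 4.83% to 6.07% of counts in culture and 7.54% to 8.67% in the femur libraries, and ribosomal protein genes 9.52% to 12.2% and 7.77% to 8.67%. All 6 human B-cell markers were tested, with summed levels of 2693 to 3447 CPM in culture, 2151 to 2356 at day 19 and 2317 to 2512 at day 40. Of the erythroid markers none passed the filter, and HBB and HBA2 were among those at 0 in every library. Also at 0 were S100A8 and S100A9 of the 6 myeloid, CDH5, KDR and EMCN of the 5 endothelial and CD7 of the 6 T-cell markers. LYZ of the myeloid and PECAM1 of the endothelial markers passed the filter. The myeloid markers summed to 2.6 to 5.0 CPM in culture, 4.8 to 5.9 at day 19 and 2.4 to 5.3 at day 40. The endothelial markers summed to 4.4 to 7.6, 1.6 to 3.1 and 3.3 to 4.2 CPM in the same order. The 6 T-cell markers summed to 5.77 to 8.78 CPM in culture, 6.55 to 9.82 at day 19 and 10.2 to 11.8 at day 40. The 8 stromal markers summed to 0.0387 to 0.254 CPM in culture, 4.04 to 6.79 at day 19 and 3.48 to 4.56 at day 40. PDGFRB, one of the genes most like IGLL1, was the single one tested, and COL1A2, COL3A1, LUM, POSTN and CXCL12 were at 0. The treatment of mouse reads was not given in the sources used here, and the part of these shares in the results was not tested.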

How the data were processed

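RNA-seq libraries of DOHH2 cells were compared between culture day 0, femur day 19 and femur day 40, with groups taken from the sampling day in the titles. The authors deposited raw counts for 58243 Ensembl identifiers in each library, as whole numbers without normalization. Per the submitters' processing notes, FastQC 0.11.5, STAR 2.5.2a, featureCounts 1.4.6 and DESeq2 1.40.1 were used with hg38. Not given in the sources used here are the annotation, the strand setting and how multi-mapping or mouse reads were treated. GENCODE 29 named 57980 identifiers and gave positions and exon lengths, and upstream sequences and starts came from RefSeq (GRCh38.p14), which held all 6 members.

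Counts were fitted in R 4.3.3 with edgeR 4.0.16 (filterByExpr with a minimum count of 10, TMM scaling, glmQLFit over all 9 libraries), and p-values were adjusted by Benjamini-Hochberg over 15163 genes, with a threshold of 0.05. Standard errors are the fold change divided by the root of its F statistic. CPM use TMM library sizes. Ratios are of summed counts over summed library sizes, with exact 95% counting intervals. For a member with few culture counts the fitted fold change depends on the prior count, and the ratio is given. Likeness used log2 CPM with a prior count of 2 for genes reaching a mean of 1 CPM. The fit was tested on simulated data.

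The members, gene lists and naming rule were chosen with earlier results of these data known. Named were the members, up to 4 called genes per list and comparison with the smallest p (or the first where none was called), relatives of IGLL1, the 2 nearest tested genes on each side, the 5 genes most like RAG1 and IGLL1, and FOXO1, EBF1, TCF3, PAX5 and IKZF1. Titles carry no replicate numbers, and libraries were matched by sampling period from their dates. Deviations of same-period libraries correlated by 0.101, 0.132 and 0.305 between day 19 and day 40, by 0.033, -0.05 and 0.118 between culture and day 19, and by 0.081, 0.202 and 0.168 between culture and day 40. Ratios within periods are printed for day 19 and day 40 only, a choice that these values do not single out. The block on the period was fitted to all libraries, culture included. Alternatives were other scalings, no filter, DESeq2 1.42.0, limma 3.58.1 (voom), the period as a block, fits of 2 groups, and each library left out. Day 40 replicate 3 as the only day 40 library was added after seeing the data. Some named genes are not reported here. Total counts per library, given in the report, set the precision.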

Additional observations from a re-analysis of the deposited data

Results flagged for a closer look

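The edgeR test of day 40 against day 19 called 18 of the named genes, with RAG1 and IGLL1 left aside. Many of them were named because this same test called them, so their number is no result. Of all tested genes 3.23% were called higher and 1.45% lower. Among the members, the log2 difference was -1.61 for RAG2 and -1.90 for DNTT. Among the transcription factors it was -0.60 for MYB, -0.77 for IKZF2, -0.53 for EBF1, -0.40 for TCF3, 0.52 for FOXO1 and 0.63 for MEF2C. Among signalling genes it was -0.65 for IL7R, -0.36 for PIK3CD, -0.33 for CCND3 and 0.55 for LYN. CXCR4 gave -0.38 and UNG -0.22, both near the threshold. Among the nearest tested genes of members, AP000345.2 gave -1.47, BCR -0.45, ZNF70 -0.53 and COMMD9 -0.45. The calls of COMMD9, ZNF70 and BCR were lost in 5, 4 and 1 of the 9 fits that left out 1 library.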

How the results depend on the processing

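Of 110 results for a named gene in a comparison, 83 kept their direction and their side of the threshold in every alternative. For the members, 301 of the single alternative values kept both, 4 lost the call and 0 reversed. Both tallies include RAG1 and IGLL1, whose values chose the set, so that they overstate how stable the members are. The 4 lost calls all belonged to RAG2 and DNTT at day 40 against day 19. For the other named genes 1478 kept both, 72 lost the call, 8 gained it and 5 reversed. When libraries were scaled to their totals alone, the median of all genes shifted by 0.087 at day 19 and 0.082 at day 40 against culture, API5 reversed at day 19 (0.057) and IKZF1 at day 40 against culture (0.017), and the counts became 3 lower for end joining and 2 higher for immunoglobulin genes at day 19, and 0 lower for precursor markers at day 40 against day 19. Without a filter, immunoglobulin genes gave 2 higher at day 19 and 1 at day 40 against day 19, hypermutation 2 higher at day 40 against culture and 0 lower at day 40 against day 19, and precursor markers 1 higher and 5 lower at day 40 against day 19. For precursor markers in that last comparison, DESeq2 and the fit of only 2 groups each gave 3 lower and limma voom gave 0. The replicate block by sampling period gave, at day 40 against day 19, 1 lower for end joining, 1 higher and 3 lower for precursor markers and 0 lower for hypermutation, and changed no call of a member. With day 40 replicate 3 as the only day 40 library, assumed to vary like the other groups, day 40 against culture gave 2 higher for end joining, 4 lower for transcription factors, 5 lower for receptor signalling and 1 higher for hypermutation, and IKZF1 reversed (0.046). In that fit day 40 against day 19 gave 2 members lower (RAG1 and IGLL1, whose values chose the set), 0 transcription factors higher and 1 lower, and 0 for receptor signalling in both directions, precursor markers and hypermutation. With 1 library left out, API5 at day 19 ran from -0.079 to 0.013 and NPM1P25 from -0.095 to 0.203. At day 19, end joining ran from 3 to 5 in each direction and immunoglobulin genes from 1 to 2 higher. At day 40 against culture, receptor signalling ran from 3 to 6, hypermutation from 2 to 4 and immunoglobulin genes from 1 to 2 higher. At day 40 against day 19, precursor markers ran from 0 to 4 lower, transcription factors from 3 to 6 lower, hypermutation from 0 to 1 lower, and receptor signalling and immunoglobulin genes from 0 to 1 higher. All genes called in that comparison numbered 710, and from 99 to 1324 in the alternatives. Depth limits RAG2 and DNTT in culture, where 2 and 1 counts leave wide intervals. The causes of these shifts were not tested.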
